A study of Mus musculus with 3 samples.

Results

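Gene deserts are long stretches of chromosome with no protein-coding gene. ATRX peaks in gene deserts were taken here as peaks on chromosomes 1 to 19 whose summit lay at least 500 kb from every protein-coding gene of the RefSeq annotation of mouse GRCm38.p6. The rule used gene positions alone and no measured value. It selected 6530 of 112153 control peaks, or 5.93% of the 110190 on autosomes, and 6995 of 105674 MICAL1-FL peaks, or 6.70% of the 104337 on autosomes. Both lists come from ATRX ChIP-seq of primary neurons of C57BL6/J mouse embryos (E15.5 to E17.5), given lentivirus after 5 days in culture and harvested at 14 days. The virus carried mCherry for the control neurons and, for the others, MICAL1-FL, a form of the actin-oxidising enzyme MICAL1. The labels give no promoter for either virus and do not say whether embryos were pooled. Each condition has a single ChIP library. Conditions were therefore compared without replicates or a test, and the 95% exact intervals printed cover counting error alone. Peak names in the list labelled MICAL1-FL carry another tag (TBC_M2), and each MICAL1-FL value rests on the sample label.

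ATRX is a chromatin remodeller that loads histone H3.3 together with DAXX, and it is best known at telomeres, at repeats next to centromeres and at silenced chromatin. Gene deserts in mammals are known to lie beside developmental regulators and genes of neuronal cell contact, and some hold enhancers that act over long distances on the gene at their edge. On the autosomes, the rule left 248 desert stretches of 201.4 Mb, which is 8.38% of the 2403 Mb between the first and last peak of each chromosome. Their median length was 0.496 Mb and the longest measured 3.54 Mb, and 72 deserts of at least 1 Mb made up 137.7 Mb of the total. These lengths leave out the 500 kb next to each flanking gene. Deserts lacked protein-coding genes but not all genes. They held 1200 other annotated genes, among them 456 pseudogenes, 275 long noncoding RNA (lncRNA) genes, 21 microRNA genes, and 209 V segments and 99 V segment pseudogenes of antigen receptors in 3 deserts.

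Sequence at desert peaks could be read only at the starts of lncRNA genes, whose promoter windows (250 bases before to 50 after the start) RefSeq gives on GRCm38.p6. The table had windows for 205 desert genes. A desert peak overlapped the window of 4 genes in the control list and of 6 in the MICAL1-FL list, and 1 gene, Gm39613, had both. These are 1.95% (0.534 to 4.92) and 2.93% (1.08 to 6.26) of desert lncRNA genes with a window. Over all autosomal lncRNA genes with a window, the shares were 8.2% and 7.85%, and over the 9086 outside deserts they were 8.34% (7.78 to 8.93) and 7.96% (7.41 to 8.53). Peaks at lncRNA starts were thus less frequent in deserts, with intervals that do not overlap in either list. Summit density as a whole was also lower in deserts, 0.688 (control) and 0.785 (MICAL1-FL) times that elsewhere, and was not set aside here. The share of windows that peaks would overlap by accident was not computed, so the overlaps below are examples and not evidence of peaks placed at starts. The windows shown are those of Gm39613 and of the 3 genes whose window also holds the summit of a peak. Capitals mark the bases under the peak, and for Gm39613 those under the peaks of both lists.
Gm39613, chr11:24951310-24951609, plus strand, Bcl11a to Fancl desert: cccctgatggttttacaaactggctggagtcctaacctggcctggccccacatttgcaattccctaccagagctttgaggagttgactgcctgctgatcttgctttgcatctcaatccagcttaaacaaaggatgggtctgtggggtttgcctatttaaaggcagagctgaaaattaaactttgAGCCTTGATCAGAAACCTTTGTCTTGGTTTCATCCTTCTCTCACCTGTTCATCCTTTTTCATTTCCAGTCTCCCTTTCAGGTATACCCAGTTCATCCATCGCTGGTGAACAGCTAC
Gm30113, chr15:62953966-62954265, plus strand, Myc to Gsdmc desert: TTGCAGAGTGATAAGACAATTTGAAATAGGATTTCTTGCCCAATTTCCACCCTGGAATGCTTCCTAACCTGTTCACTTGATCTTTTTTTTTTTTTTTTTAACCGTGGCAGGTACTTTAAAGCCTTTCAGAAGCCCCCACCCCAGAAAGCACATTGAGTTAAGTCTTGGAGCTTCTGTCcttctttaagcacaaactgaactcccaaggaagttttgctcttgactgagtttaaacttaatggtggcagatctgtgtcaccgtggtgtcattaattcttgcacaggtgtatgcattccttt
Gm17751, chr1:76488883-76489182, plus strand, Slc4a3 to Epha4 desert: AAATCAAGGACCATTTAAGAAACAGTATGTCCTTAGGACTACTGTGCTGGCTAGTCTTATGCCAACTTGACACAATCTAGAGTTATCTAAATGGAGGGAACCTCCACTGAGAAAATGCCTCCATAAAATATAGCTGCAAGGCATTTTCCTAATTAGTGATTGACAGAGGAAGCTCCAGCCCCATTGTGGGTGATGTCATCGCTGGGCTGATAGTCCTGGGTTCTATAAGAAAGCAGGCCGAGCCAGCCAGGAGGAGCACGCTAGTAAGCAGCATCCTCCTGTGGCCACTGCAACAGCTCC
Gm35430, chr10:46228905-46229204, plus strand, Hace1 to Grik2 desert: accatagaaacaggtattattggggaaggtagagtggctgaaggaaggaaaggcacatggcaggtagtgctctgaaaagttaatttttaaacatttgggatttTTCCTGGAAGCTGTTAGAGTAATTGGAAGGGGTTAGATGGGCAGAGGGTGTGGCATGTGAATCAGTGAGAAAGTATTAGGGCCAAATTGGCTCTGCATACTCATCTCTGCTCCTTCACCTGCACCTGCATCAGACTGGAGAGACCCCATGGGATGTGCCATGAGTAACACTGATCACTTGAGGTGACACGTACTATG
At Gm39613 the control peak was 6 ChIP fragments deep with a fold over background of 2.67, and the MICAL1-FL peak was 5 fragments deep with a fold of 2.29. The control peak covered the last 116 bases of the window and the MICAL1-FL peak the last 167, and both ran on into the gene. Gm30113 had a control peak of 4 fragments (fold 1.75). Gm17751 and Gm35430 each had a MICAL1-FL peak of 6 fragments (fold 2.68). GC content of these windows was 46.3% for Gm39613, 40.7% for Gm30113, 47.7% for Gm17751 and 46.0% for Gm35430. The median was 42.3% over all desert windows and 48.3% over the 11311 autosomal lncRNA windows of the table. Folds are those of the authors' peak caller, and depths were recovered from the authors' fold and p-value.

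Desert peaks were not gathered in noncoding genes. Noncoding here means every annotated type other than protein-coding, with V segments and their pseudogenes included. Of desert summits, 619 in the control list (9.48%, 8.78 to 10.2) and 625 in the MICAL1-FL list (8.93%, 8.28 to 9.63) lay in an annotated noncoding gene, a class that covered 9.85% of desert length. In lncRNA genes alone, summit density relative to other desert sequence was 1.01 (0.913 to 1.11) in the control list and 1.09 (0.993 to 1.19) in the MICAL1-FL list. Both intervals include 1. Over all noncoding genes it was 0.958 (0.881 to 1.04) and 0.898 (0.826 to 0.975), the latter a little below the rest of the deserts. LncRNA genes held 510 of the 625 MICAL1-FL summits, so the lower value comes from the other types. The part of the V segments in it was not tested.

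Desert microRNA genes ranged from having a summit close by to having none of either list within 50 kb. Of the 248 deserts, 7 held no peak of either list. The longest of these, 235 kb between Gm51483 and Ndn, carries the Mir344 microRNA cluster. Ndn is an imprinted gene known from the Prader-Willi region. The 3-prime mature microRNAs of the cluster are shown because all 8 hairpins lie in this stretch without peaks. Capitals mark the seed, bases 2 to 8, by which a microRNA pairs with its targets.
mmu-miR-344d-3p: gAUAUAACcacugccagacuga
mmu-miR-344e-3p: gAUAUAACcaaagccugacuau
mmu-miR-344h-3p: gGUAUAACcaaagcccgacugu
mmu-miR-344b-3p: cAUUUAGCcaaagccugacugu
mmu-miR-344c-3p: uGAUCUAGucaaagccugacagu
The first pair share a seed, and those of miR-344h, miR-344b and miR-344c differ from it and from each other. The nearest summit to any of the 8 hairpins was 74.7 kb away in the control list (Mir344d-1) and 138 kb away in the MICAL1-FL list (Mir344c). By contrast, Mir135a-2, whose product is abundant in brain, had 2 control summits within 5 kb, the nearer at 3.84 kb, and its nearest MICAL1-FL summit was 19.6 kb away. Mir6238 had a MICAL1-FL summit at 0.593 kb and its nearest control summit at 7.66 kb. Of the other microRNA genes measured, Mir6350 and Mir3961 had a control summit within 5 kb and Mir8099-2 a MICAL1-FL summit. The rest had none that near. These distances were not set against the summit density of deserts. How well reads map to the Mir344 stretch was not measured.

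Deserts held fewer ATRX peaks per Mb than the rest of the autosomes in both libraries. The control list had 32.4 summits per Mb in deserts (31.6 to 33.2) and 47.1 elsewhere (46.8 to 47.4), a ratio of 0.688 (0.671 to 0.706). The MICAL1-FL list had 34.7 (33.9 to 35.6) and 44.2 (43.9 to 44.5), a ratio of 0.785 (0.766 to 0.805). Density did not step down at the desert limit. Nearer to genes it had no steady trend, with 45.8 control and 41.1 MICAL1-FL summits per Mb at 0 to 50 kb and 49.4 and 46.9 at 50 to 100 kb, and it then fell off with distance. In the control list it was 47.3 per Mb at 100 to 250 kb from a gene, 41.3 at 250 to 500 kb, 35.3 at 500 to 750 kb, 29.6 at 750 to 1000 kb and 30.5 at 1 Mb or more. The MICAL1-FL densities over the same distances were 46.8, 43.6, 37.8, 32.4 and 32.3 per Mb. Within deserts, the 2 farthest classes had overlapping intervals in each list, so no further decline was resolved beyond 750 kb. Against the gene-free 500 kb margins at their own edges, which carried 41.5 control and 43.0 MICAL1-FL summits per Mb, deserts had 0.782 (0.758 to 0.806) and 0.808 (0.784 to 0.833) times the density. Base composition, assembly gaps and how well reads map were not measured along the deserts, and their part in the lower density was not tested.

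**Figure D1:**
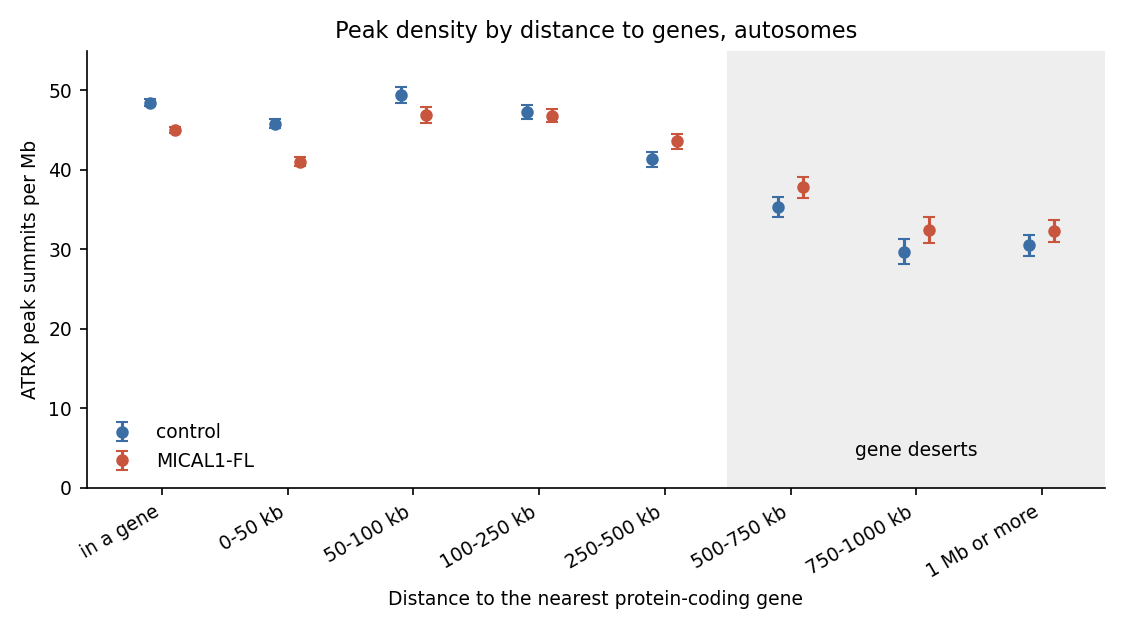
ATRX peak summits per Mb of autosome (vertical axis) by distance to the nearest protein-coding gene (horizontal axis), with 95% exact Poisson intervals as bars, for the control (blue) and MICAL1-FL (red) libraries. Density lies between 41.1 and 49.4 per Mb from genes out to 500 kb and between 29.6 and 37.8 per Mb in the deserts, shaded grey.

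The lower density held on each chromosome. Deserts were below the rest of the chromosome on 19 of 19 autosomes in the control list, with ratios from 0.562 on chromosome 12 to 0.812 on chromosome 9. They were also below on 19 of 19 in the MICAL1-FL list, from 0.627 on chromosome 17 to 0.919 on chromosome 2. Chromosomes differed widely in how much desert they carry. Chromosome 14 had 13.3% of its length in deserts and chromosome 3 had 12.3%, whereas chromosome 19 had 2.59%, with 48 control and 49 MICAL1-FL peaks.

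**Figure D2:**
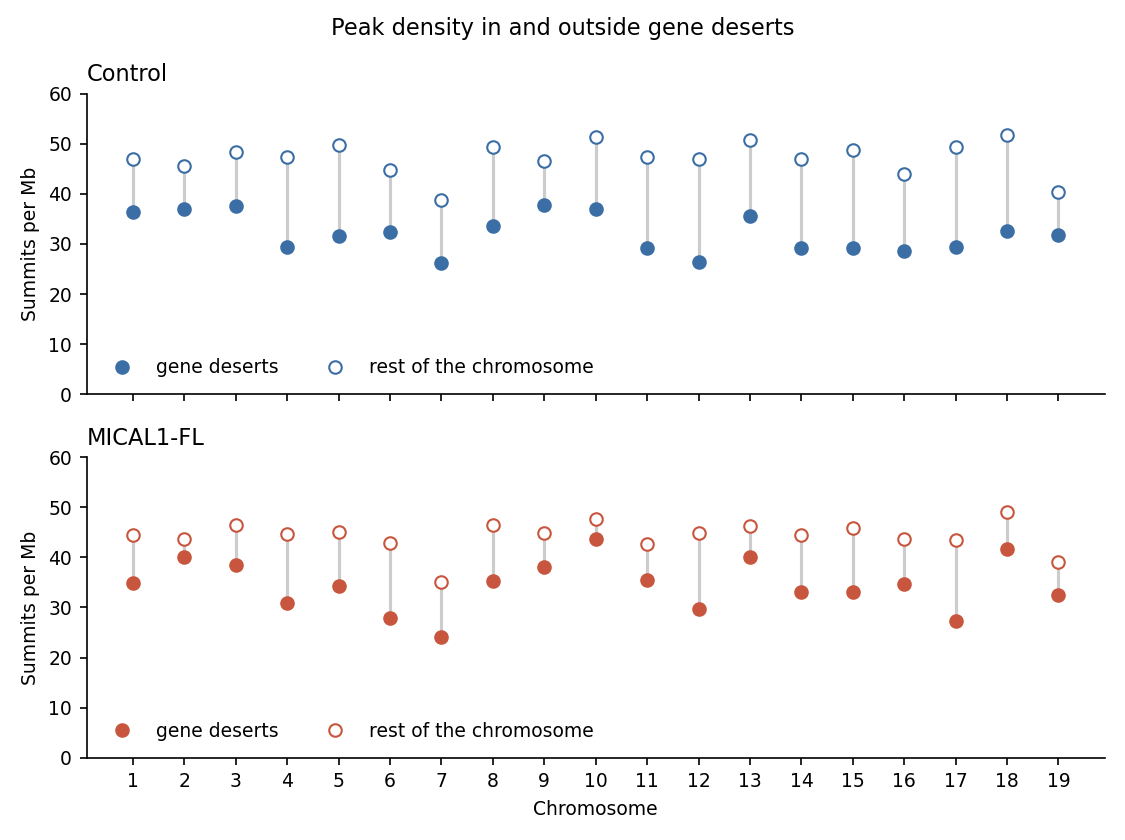
Peak summits per Mb in gene deserts (filled points) and on the rest of the same chromosome (open points) for the 19 autosomes, control above and MICAL1-FL below; each point is 1 library, with no error bar. Every filled point lies under its open point, and the distance between them is smaller in the MICAL1-FL library on 18 chromosomes, chromosome 6 being the exception.

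Deserts made up a larger part of the MICAL1-FL list than of the control list. The quotient of MICAL1-FL over control peak numbers was 1.07 in deserts (1.04 to 1.11), where 6995 stood against 6530, and 0.939 on the rest of the autosomes (0.931 to 0.947). The desert ratio was thus 1.14 times that of the rest (1.10 to 1.18). It was above the rest on 18 of 19 chromosomes, with an interval that leaves out 1 on 9 of them and none leaving it out on the other side. The values ran from 0.897 on chromosome 6 (0.759 to 1.06) to 1.36 on chromosome 18 (1.16 to 1.59). The change did not begin at 500 kb. The ratio was 0.896 at 0 to 50 kb from a gene, 0.9496 at 50 to 100 kb, 0.990 at 100 to 250 kb and 1.06 at 250 to 500 kb, and then 1.07, 1.09 and 1.06 in the 3 desert classes, whose intervals overlap. At 1 Mb or more the interval (0.995 to 1.13) includes 1. Relative to their own gene-free margins, deserts had a ratio of 1.03 (0.990 to 1.08), which includes 1. An interval wholly above 1 was found at 250 to 500 kb too (1.02 to 1.09), and so not in deserts alone.

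**Figure D3:**
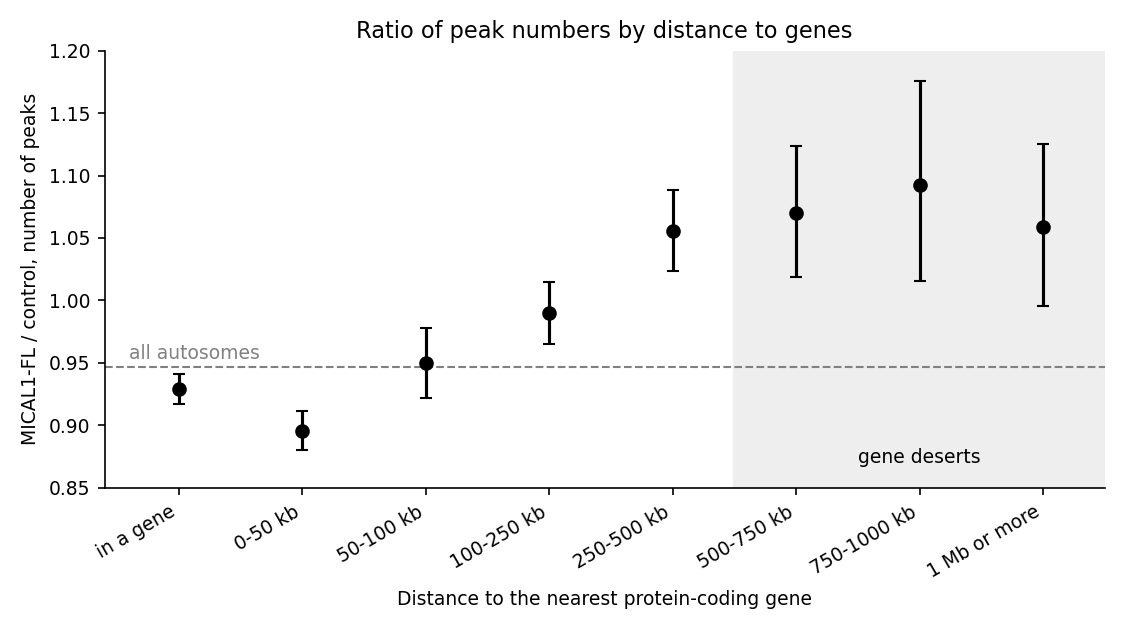
Number of MICAL1-FL peaks divided by that of control peaks (vertical axis, starting at 0.85) by distance to the nearest protein-coding gene, with 95% exact conditional binomial intervals; the dashed line is the ratio of all autosomes, 0.947. The ratio lies below the line next to genes (0.896 at 0 to 50 kb), on it at 50 to 100 kb and above it from 100 kb on, with values of 1.06 to 1.09 from 250 kb outwards.

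The desert excess of MICAL1-FL peaks had an interval above 1 at depths of 4 and 5 fragments and was not resolved at any single greater depth. Desert peaks of 6 fragments (1653 MICAL1-FL and 1748 control) were more numerous than those of 4 (1639 and 1346). Relative to the rest of the autosomes, the desert ratio was 1.15 for peaks 4 fragments deep (1.06 to 1.24) and 1.18 at 5 fragments (1.12 to 1.25). It was 1.05 at 6 fragments (0.983 to 1.13), 1.10 at 7 (0.973 to 1.23), 1.10 at 8 (0.878 to 1.37), 0.958 at 9 (0.581 to 1.56) and 1.94 at 10 (0.581 to 6.85). These 5 intervals include 1, and the last rests on 6 control and 8 MICAL1-FL desert peaks. Background also differed between lists and between deserts and the rest. In deserts, the background did not exceed its most common value, 1.62 fragments, at 71.3% of control and 80.9% of MICAL1-FL peaks, against 62.3% and 67.8% elsewhere. Its part in the difference was not tested.

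Single deserts differed several-fold in peak density, and the libraries ranked them alike. Across the 122 deserts of at least 500 kb, the densities of the lists had a Pearson's r of 0.747 and a Spearman's rho of 0.647. This is a description, since each list is 1 library and each desert is the same sequence in both lists. Both lists together gave a median of 64.4 summits per Mb (quartiles 56.6 and 77.4), and 110 of the 122 lay below the 89.3 of all autosomes. The densest of the 122 was the desert from Agtr1b, an angiotensin receptor gene, to Tbl1xr1, a corepressor subunit gene, with 107 control and 86.0 MICAL1-FL summits per Mb (76 and 61 peaks). The stretch on the other side of Tbl1xr1, up to Naaladl2, was also among the 5 densest, with 56.7 and 65.3 per Mb. The other 3 were the deserts beside Auts2, a gene linked to neurodevelopmental disorders (75.5 and 82.7), beside the atypical cadherin gene Fat4 (55.8 and 65.5) and beside Mef2c, a transcription factor gene of neurons and muscle (58.0 and 59.4).

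Among deserts of at least 500 kb, the sparsest was the immunoglobulin heavy chain V region between Adam6a and Zfp386. It had 1 control and 3 MICAL1-FL peaks in 1.501 Mb that hold 115 V segments, pseudogenes included. Of this, 589 kb passed without a peak of either list. The T cell receptor alpha V segment desert between Gm36448 and Dad1 was not as empty, with 26 and 17 peaks in 0.694 Mb. After the heavy chain region, the sparsest were the deserts from Arrdc4 to the orphan nuclear receptor gene Nr2f2 (9.96 control and 19.9 MICAL1-FL summits per Mb, from 6 and 12 peaks), from 1700015G11Rik to Luzp2 (21.4 and 16.5), from Manea to the ephrin receptor gene Epha7 (20.5 and 18.4) and from the protocadherin gene Pcdh9 to Spertl (17.2 and 22.3). V segments resemble each other in sequence, and the part of read mapping in these counts was not tested.

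Of the 10 longest deserts, 7 were bounded by a neuronal adhesion or guidance gene. The longest, 3.54 Mb between the protocadherin genes Pcdh20 and Pcdh9, had 91 control and 114 MICAL1-FL peaks. The 3.42 Mb between Olfm4 and the protocadherin gene Pcdh17 had 83 and 112. The 3.28 Mb between Cntnap5b, of the contactin-associated family, and the cadherin gene Cdh20 had 98 and 105. Lower in the MICAL1-FL list were the 2.99 Mb between the teneurin gene Tenm3 and Aga (72 and 46) and the 2.97 Mb between Slc39a10 and Tmeff2 (109 and 77). The remaining 5 were Celf4 to Pik3c3 (107 and 161), Lrrc4c to Iftap (117 and 109), Dsel to Cntnap5a (92 and 97), Zeb2 to Acvr2a (92 and 116) and Pcdh7 to G6pd2 (76 and 81). In all 10, the longest run without a summit of either list was at most 156 kb, so peaks were spread along them and not confined to their edges. The desert peak farthest from any protein-coding gene was 2249 kb away in the control list, between Celf4 and Pik3c3, and 2263 kb away in the MICAL1-FL list, at chr14:90733892-90734178 between Pcdh20 and Pcdh9. Both were 5 fragments deep, the median of all desert peaks, with folds of 2.29.

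Of the 173 deserts with at least 20 peaks of both lists together, 18 (10.4%) had a MICAL1-FL to control interval wholly above the autosomal ratio of 0.947 and 1 (0.578%) wholly below it. Among all 2363 autosomal 1 Mb windows with as many peaks, the shares were 4.15% and 3.09%. Of the 170 such windows with no less desert than other sequence, 6.47% lay above and 1.18% below. Deserts vary in length and windows do not, so the shares are not on equal footing. The highest ratio was in the desert between the proto-oncogene Myc and Gsdmc, with 24 control and 49 MICAL1-FL peaks (2.04, 1.23 to 3.48). It was followed by Fbxo15 to Neto1 (14 and 28; 2.00, 1.02 to 4.11), Tmpo to Nedd1, which holds Mir135a-2 (20 and 35; 1.75, 0.983 to 3.20), Tenm2 to Mat2b (38 and 61; 1.61, 1.05 to 2.47), and Bcl11a to Fancl (40 and 64; 1.6, 1.06 to 2.44). The 1 desert below was Tenm3 to Aga (0.639, 0.431 to 0.938). Many deserts were compared and no p-value stands behind any of them.

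**Figure D4:**
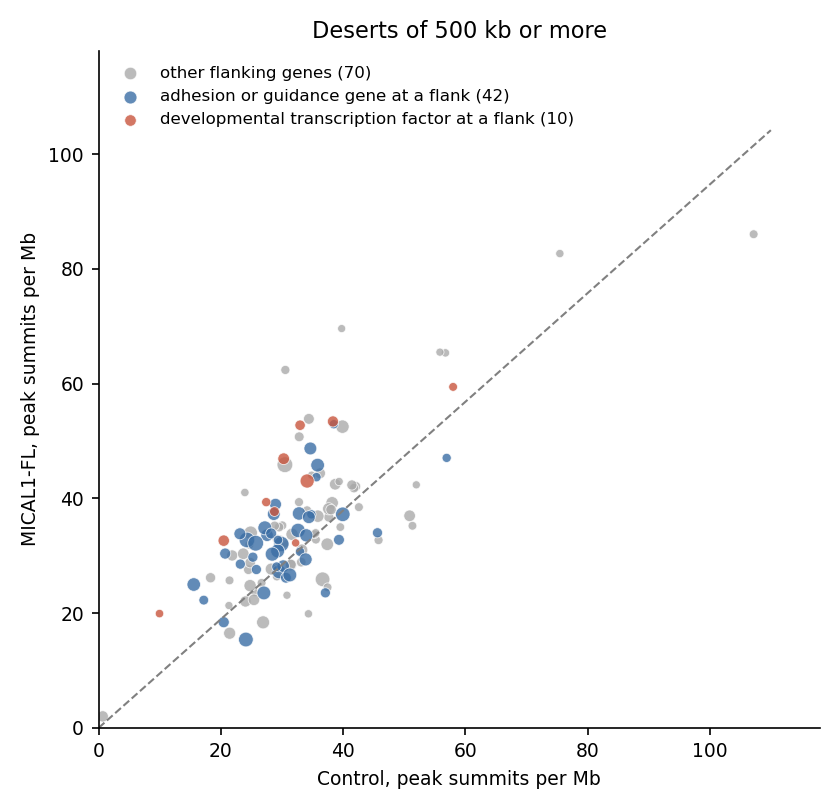
Control (horizontal) against MICAL1-FL (vertical) peak summits per Mb for the 122 deserts of 500 kb or more, with point area growing with desert length and colour giving the flanking genes; the dashed line is the autosomal ratio of 0.947. Most deserts lie between 20 and 60 per Mb in both lists, Agtr1b to Tbl1xr1 is the point farthest right (107 and 86.0), and the deserts beside developmental transcription factor genes (red) lie mostly above the line. Of all deserts with at least 20 peaks of both lists together, whatever their length, 112 of 173 had a ratio above it.

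Neighbouring genes were counted in 4 lists, beside their share among all 20665 autosomal protein-coding genes. The lists were drawn by gene symbol, and their names do not give the function of each member. The adhesion and guidance list also takes in Cdh5 and Adgrl4, for example, which need not act in neurons. Genes of like function can fall outside a list. Of 456 genes that flank a desert, 47 (10.3%) were neuronal adhesion and axon guidance genes, a list that makes up 0.726% of all genes. They include 11 classical and type II cadherins such as Cdh8 and Cdh10, the protocadherins Pcdh7, Pcdh9, Pcdh10 and Pcdh17, the teneurins Tenm2, Tenm3 and Tenm4 and the Slitrk genes Slitrk1, Slitrk5 and Slitrk6. Deserts beside such a gene held 41.6% of desert length. Developmental transcription factors made up 4.82% of flanking genes (22, against 1.41% of all genes) and ion channels and neurotransmitter receptors 3.95% (18, against 1.16%). Olfactory and vomeronasal receptors made up 0.219% (1, against 7.05%). By nearest gene, desert peaks were most numerous around Cdh8 (74 control and 90 MICAL1-FL peaks), Lrrc4c, a synaptic netrin-G ligand gene (85 and 73), Pcdh9 (61 and 89) and Pcdh7 (71 and 77). The 20 leading genes accounted for 17.2% of control and 18.5% of MICAL1-FL desert peaks. Counts by nearest gene were not divided by desert length. Per Mb, deserts beside adhesion and guidance genes had 30.4 control and 32.3 MICAL1-FL summits, against 34.3 and 35.6 where neither flank was in a list.

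The MICAL1-FL to control ratio was higher in deserts beside developmental transcription factors than in all other deserts together. These 22 deserts held 456 control and 600 MICAL1-FL peaks, or 32.3 and 42.5 per Mb, a ratio of 1.32 (1.16 to 1.49). The ratio was 1.06 (1.005 to 1.12) beside adhesion and guidance genes, 1.10 (0.959 to 1.27) beside channels and receptors and 1.04 (0.988 to 1.09) where neither flank was in a list. The interval beside channels and receptors overlaps that of the transcription factor deserts, and differences between single lists were not tested. Against all other deserts (1.05), the transcription factor deserts had 1.25 times the ratio (1.10 to 1.42). Of the 12 with at least 20 peaks, 10 had a ratio above that of all autosomes, against 112 of all 173 deserts with as many peaks. An interval wholly above the autosomal ratio was found for 5 of the 12, against 18 of the 173. The 5 include the deserts beside Nr2f1 (51 and 79 peaks), a regulator of cortical area identity, and Bcl11a, a zinc finger gene of projection neurons. The desert beside Mef2c had 41 and 42. Leaving out any single desert kept the ratio between 1.29, without Nr2f1, and 1.34, without Mef2c. The 4 lists were chosen with earlier results of these data known, and the ratio of this one was read after all had been computed.

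Desert-flanking genes had a peak at their own ends more often than genes at large. A summit lay within 1 kb of an end of 190 of 456 flanking genes in the control list (41.7%, 37.1 to 46.3), against 27.7% of all autosomal protein-coding genes. In the MICAL1-FL list the number was also 190 (41.7%, 37.1 to 46.3), against 26.5%. Without olfactory and vomeronasal receptors, which rarely had one, the figures for genes at large were 29.5% and 28.2%. Both lists had an end peak at 111 flanking genes (24.3%), against 10.9% of all genes. Examples with one in both lists are Zeb2, Nr2f1, Sox11, Pcdh17 and Cdh20, while Tenm3 and Gata3 had none. Bcl11a and Mef2c had one in the control list alone, and Pcdh9, Cdh8 and Lrrc4c in the MICAL1-FL list alone. Within the lists other than that of olfactory receptors, flanking members also had an end peak more often, except for channels and receptors in the control list. These counts are small and the differences were not tested. An end peak was present at 21 of 47 flanking adhesion and guidance genes in the control list (44.7%), against 40.8% of those elsewhere, and at 25 of 47 (53.2%), against 42.7%, in the MICAL1-FL list. For developmental transcription factors the counts were 12 and 9 of 22 flanking genes (54.5% and 40.9%, against 45.6% and 33.0% of those elsewhere). For ion channels and neurotransmitter receptors they were 8 and 9 of 18 (44.4% and 50%, against 45.2% and 37.6%). The 1 flanking receptor of the olfactory list had no end peak.

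Desert peaks were narrower and shallower than others, by a small margin. The median width was 324 bp in the control list (quartiles 280 and 410), against 335 bp elsewhere (284 and 435), and 326 bp in the MICAL1-FL list (282 and 411), against 333 bp (284 and 428). The difference lay in the wide peaks. Peaks of 500 bp or more made up 12.6% of desert control peaks (11.8 to 13.4), against 16.2% elsewhere (16.0 to 16.5), and 13.0% of desert MICAL1-FL peaks (12.2 to 13.8), against 15.4% (15.2 to 15.6). At 1000 bp or more there were 19 desert peaks in each list, or 0.291% and 0.272%, against 0.813% and 0.692%. The median depth was 5 fragments in and outside deserts. Peaks of at least 7 fragments made up 13.5% of control desert peaks (12.6 to 14.3), against 16.8%, and 11.1% of MICAL1-FL desert peaks (10.4 to 11.9), against 14.4%. The widest desert peaks were shallow. In the control list they were 1861 bp at chr5:133171493-133173353 beside Auts2, 6 fragments deep, 1269 bp at chr6:9862007-9863275 beside Nxph1 (8 fragments) and 1148 bp at chr1:114185811-114186958 beside Cntnap5a (7 fragments). In the MICAL1-FL list they were 1568 bp at chr12:5922307-5923874 beside Klhl29 (5 fragments), 1309 bp at chr5:79295183-79296491 beside Adgrl3 (6 fragments) and 1216 bp at chr12:96968067-96969282 beside Flrt2 (4 fragments). Of these 6, the peak beside Cntnap5a alone overlapped a peak of the other list.

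**Figure D5:**
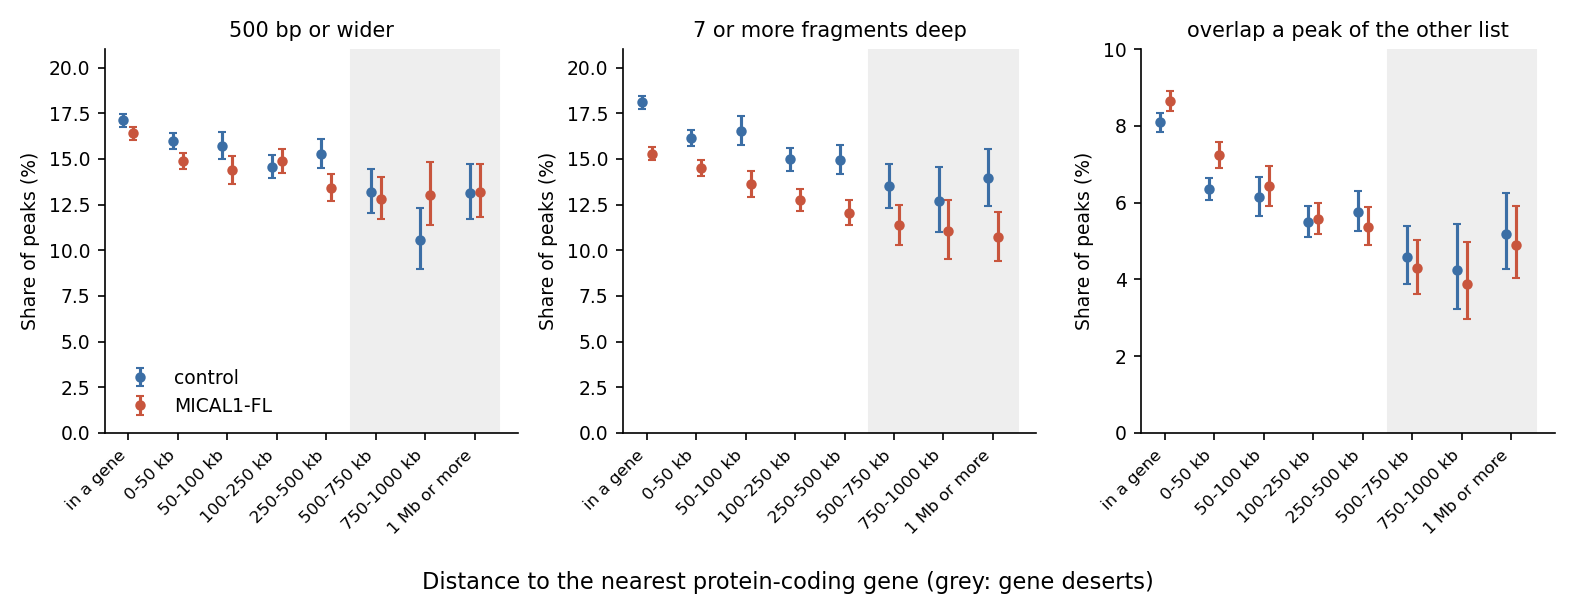
Share of peaks (vertical axes, %) that are 500 bp or wider (left), at least 7 fragments deep (middle) and overlapping a peak of the other list (right), by distance to the nearest protein-coding gene, with 95% exact Clopper-Pearson intervals; deserts are shaded. All 3 shares are highest inside genes (17.1%, 18.1% and 8.09% in the control list) and lower in the deserts, where they lie between 3.88% and 13.9% over both lists.

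Clusters of peaks were less common in deserts. With a cluster taken as 3 or more summits of 1 list at most 5 kb from the next, 8.71% of control desert peaks (8.04 to 9.42) lay in clusters, against 17.3% elsewhere, and 8.98% of MICAL1-FL desert peaks (8.32 to 9.67), against 15.04%. The median distance between neighbouring summits was 19.7 kb in the deserts of the control list and 12.4 kb elsewhere, and 17.9 and 13.4 kb in the MICAL1-FL list. To set density aside, pairs of summits 0.5 to 5 kb apart were compared, per kb, with pairs 20 to 50 kb apart. This ratio was 1.14 in control deserts (1.07 to 1.21) and 1.13 elsewhere (1.12 to 1.14). It was 1.02 in MICAL1-FL deserts (0.965 to 1.08) and 1.14 elsewhere (1.12 to 1.15). A summit enters many pairs, so these intervals are too narrow. Peak numbers per stretch also varied less in deserts relative to their mean. Over 589 desert stretches of 250 kb, the variance of the peak number was 1.497 times its mean in the control list and 1.80 times in the MICAL1-FL list, against 3.15 and 2.70 times over 8559 stretches elsewhere. Pearson's r between the lists was 0.376 over the desert stretches and 0.646 over the others. Both values are descriptions, since each list is 1 library and each stretch is the same sequence in both. Desert stretches had fewer peaks, with means of 7.76 (control) and 8.39 (MICAL1-FL) against 11.8 and 11.1 elsewhere. Counting error therefore takes a larger part of the variance in deserts. Neither the variances nor the correlations were adjusted for this, so a more even placement of peaks was not shown. The longest distance between neighbouring desert summits was 383 kb in the control and 334 kb in the MICAL1-FL list.

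The largest control cluster had 9 summits at chr3:21496681-21517790 in the dense desert between Agtr1b and Tbl1xr1, which also held the third largest, of 7 summits, at chr3:20977535-20991716. The MICAL1-FL list had 5 and 3 peaks within these stretches. The second control cluster had 8 summits at chr9:112820416-112834096 between Arpp21, a neuronal RNA-binding protein gene, and Pdcd6ip, with 1 MICAL1-FL peak. The next by size and then by shortest span had 5 summits each and no MICAL1-FL peak, at chr2:98796810-98803060 beside Lrrc4c and at chr14:53562902-53570444 in the T cell receptor alpha region. In the MICAL1-FL list, 4 clusters had 6 summits. They lay at chr3:22745793-22755582 (Tbl1xr1 to Naaladl2), chr2:8023513-8034131 (Celf2 to Gata3), chr12:6633050-6646494 (Klhl29 to Apob) and chr14:80840570-80855018 (Olfm4 to Pcdh17), and held 0, 2, 1 and 0 control peaks. Peaks in these clusters were 4 to 10 fragments deep. In both lists most desert clusters had no peak of the other list inside them, 110 of 171 for the control list (64.3%) and 125 of 192 for the MICAL1-FL list (65.1%).

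The lists also shared fewer peaks in deserts than elsewhere. An overlap of at least 1 bp was found for 307 control desert peaks (4.70%, 4.201 to 5.24), against 6.99% on the rest of the autosomes (6.83 to 7.14). It was found for 307 MICAL1-FL desert peaks (4.39%, 3.92 to 4.90), against 7.44% (7.27 to 7.61). Accidental overlap also falls with density, and with density set aside no difference was resolved. MICAL1-FL summits within 250 bp of a control summit were 1.66 times as frequent, per kb, as those 20 to 50 kb away in deserts (1.44 to 1.91) and 1.74 times elsewhere (1.69 to 1.80). The intervals overlap.

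Few desert peaks were strong, and the strongest were at the same places in both libraries. The q-value was below 0.05 for 10 control and 13 MICAL1-FL desert peaks, and 0.001 or less for 3 and 5. As shares, q below 0.05 was reached by 0.153% and 0.186% of desert peaks, against 0.363% and 0.303% of peaks elsewhere. For q of 0.001 or less the shares were 0.0459% and 0.0715%, against 0.106% in both lists. The strongest by far lay between Lrrc4c and Iftap at chr2:98666611-98667303, where 42596 control fragments stood over a background of 14190 (fold 3.002) and 43885 MICAL1-FL fragments over 12486 (fold 3.51). A second peak about 4 kb away at chr2:98662245-98662766 had 3877 control fragments over 1873 (fold 2.07) and 4025 MICAL1-FL fragments over 1188 (fold 3.38). The background the caller used was thus itself high at this place, and reads of the input sample were not analysed here. The third, at chr18:85697953-85698291 between Fbxo15 and Neto1, was 88 fragments deep over 21.7 in the control list (fold 3.91) and 75 over 8.83 in the MICAL1-FL list (fold 7.73). The other 2 were in the MICAL1-FL list alone. One, at chr15:14524461-14524894 between the cadherin genes Cdh6 and Cdh9, was 26 fragments deep (fold 4.51). The other, at chr1:103038322-103038619 between Cntnap5b and Cdh20, was 12 fragments deep (fold 4.97). No control peak overlapped either. Backgrounds differ between the lists, so these folds stand side by side and measure no change between conditions.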

How the data were processed

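ATRX ChIP-seq peak lists of control (mCherry) and MICAL1-FL neurons were used, 1 list per library. The input sample was not analysed here. The submitters' processing notes name MACS 1.4.2, Bowtie 1.3.0, ChIPseeker 1.26.2 and SAMtools 1.9 without their roles. Peak calling settings and build: not given in the sources used here. The deposited fold is a ratio over background, and the deposited -log10 values are the p-value and q-value of each peak, all from the authors' caller; the deposited score was 10 times the -log10 p, cut to a whole number. The largest p among control peaks was 0.0498, and among MICAL1-FL peaks 0.0496.

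From these, summit depth was solved assuming fold = (depth + 1)/(background + 1) and a Poisson p, which gave depths within 0.05 of whole numbers for at least 99.97% of peaks; no label states this. Summits within 250 bp of RefSeq gene starts were 3.28 (control) and 3.62 (MICAL1-FL) times as dense as at 5 to 10 kb, on which the use of GRCm38.p6 rests. Coordinates of deserts, which come from the gene table, are not printed. Density used each chromosome's span from its first to its last peak. Ratios have exact conditional binomial intervals, shares Clopper-Pearson intervals. Total read numbers are unknown. Deserts were named by rule: the 10 longest, 5 densest, 5 sparsest, up to 5 highest and lowest ratios, peaks with q of 0.001 or less, the 3 widest peaks and 5 largest clusters of each list. Some items that the rule names are not reported here. Other genes, promoters and microRNAs were named after values were seen. Members and lists were chosen with earlier results of these data known. Steps were tested on simulated data. Python 3.11.15, NumPy 2.4.6, pandas 2.3.3 and SciPy 1.17.1 were used.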

Additional observations from a re-analysis of the deposited data

How the results depend on the processing

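No paired analysis was possible because each condition has 1 library. Of 64 alternatives, 38 stayed within the counting interval of the value reported (counts: within 1.5 times). Of these 38, 19 left a single chromosome out of 1 ratio, a small change to the data. Whether a direction turned was asked of the ratios alone, and none did. Widths, shares and counts could not be labelled so. Desert to rest density in the control and MICAL1-FL lists was 0.772 and 0.882 with deserts from 250 kb, 0.658 and 0.738 from 1 Mb, 0.552 and 0.593 with all annotated genes (2.33 Mb left), and 0.586 and 0.668 with p of 0.001 or less. Median desert width was 329 bp (control) from 250 kb, 329 and 332 bp with p of 0.01 or less, and 352 and 346 bp with p of 0.001 or less. The share in clusters was 1.899% and 1.29% with gaps of 2 kb, 22.8% and 25.4% with 10 kb, and 2.94% and 2.67% with at least 4 summits. The shared part was 3.19% and 2.97% with summits within 250 bp, 3.08% and 2.87% with an overlap of 0.5 of the shorter peak, and 3.18% and 2.95% with p of 0.01 or less. The desert to rest ratio of MICAL1-FL to control was 1.03 against gene-free margins, with an interval that includes 1, as does that of peaks of at least 7 fragments (1.10, 0.998 to 1.22). With p of 0.01 or less it was 1.146 (1.099 to 1.196), and with p of 0.001 or less 1.139 (1.02 to 1.27). It lay between 1.13 (without chromosome 18) and 1.16 (without chromosome 1) when each chromosome was left out. The alternatives without a chromosome, with margins, with depth and without V segment deserts were chosen after seeing the data. Shallow peaks limit every count: most desert peaks hold 5 fragments or fewer.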
